A study of Mus musculus with 30 samples.

Results

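The genes described here encode the proteins of the cytosolic ribosome in mouse embryonic stem (ES) cells. They were taken by symbol from the exonic count table: symbols that start with Rpl or Rps and a digit, Rplp0 to Rplp2, and Rpsa, without the S6 kinases (Rps6k), each with at least 100 counts over the 18 RNA-seq libraries. The rule found 84 genes among the 20300 of the table, 52 with Rpl symbols of the large subunit and 32 with Rps symbols or Rpsa of the small subunit. The symbols of Rpl26 (43 counts in all) and Rps27 (12 counts) also match but stayed below 100 counts. The nearest genes above that limit were Rpl30 with 165 counts and Rpl3l with 402. The label holds for most of the genes, with named exceptions: Rps19bp1 encodes a protein that binds Rps19 and is no subunit, Rpl31-ps12 carries a pseudogene symbol, and Rpl22l1, Rpl39l, Rpl36al, Rpl7l1, Rpl3l, Rpl10l and Rps27l are paralogs or relatives of core genes.

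A ribosome holds 1 copy of almost every ribosomal protein, so cells make these proteins in matched amounts and their mRNAs are among the most abundant of a dividing cell. Their mRNAs begin with a short run of pyrimidines, the TOP motif, through which mTORC1 and Larp1 control their translation. ES cells are known for a short G1 phase and rapid growth. Esrrb, the factor removed in this study, is an orphan nuclear receptor of the pluripotency network, and the study asked what it binds in mitosis and what its loss does to expression around division.

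RNA-seq was done with a stranded mRNA kit on EKOiE-Ccna-Gfp cells of strain 129/Ola grown in serum with LIF. EKOiE is an Esrrb knockout line in which a transgene makes Esrrb as long as doxycycline (DOX) is present, so all RNA-seq cells lacked the endogenous gene product and carried the transgene and the Gfp reporter used for sorting. The 6 groups, of 3 libraries each, were cells 24 h after DOX withdrawal and cells kept in DOX, both sorted as early G1, late G1 and G2. Esrrb ChIP-seq was done on asynchronous cells (called interphase here) and mitotic cells: 2 libraries of each 48 h after DOX withdrawal, and 4 of each with DOX. The deposited peak heights are labelled noco for mitotic and asy for asynchronous cells. Any treatment marked by noco cannot be told apart from mitosis here. In the DOX groups, replicate 2 of interphase and of mitosis was made from E14Tg2a, a wild-type ES line, and all others from EKOiE. The labels do not say whether replicates were separate cultures, and EKOiE is 1 line, so p-values measure the spread between these libraries, which may be technical.

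Exonic counts ran from 11.1 to 31.8 M (mega) per library and intronic counts from 6.1 to 20.8 M. Esrrb itself was at 140, 193 and 155 CPM (counts scaled to the library total and by TMM factors) in withdrawn early G1 cells, against 203, 278 and 247 CPM in early G1 cells with DOX. The groups did not overlap in any phase, and the log2 change (withdrawn minus DOX) was -0.58 (adjusted p = 0.12) in early G1, -0.94 (adjusted p = 0.0038) in late G1 cells and -0.52 (adjusted p = 0.070) in G2 cells, by edgeR's quasi-likelihood test with Benjamini-Hochberg adjustment. With the replicate number as a block it fell by 0.58 in early G1 (adjusted p = 0.014), by 0.94 in late G1 (adjusted p = 0.00039) and by 0.53 in G2 (adjusted p = 0.012). Over introns, with the phases summed, Esrrb changed by -0.14 (edgeR without the block, adjusted p = 0.89). Counts per gene do not separate transgene RNA from RNA of the endogenous locus. The exonic changes therefore may not measure the extent of Esrrb loss. The 8 ES cell markers summed to 4098 to 5707 CPM in withdrawn libraries and 4689 to 5936 CPM in DOX libraries. Of other cell types, 8 fibroblast or feeder markers summed to 28.5 to 43.5 CPM in withdrawn and 29.1 to 41.0 CPM in DOX libraries. The 6 primitive endoderm markers summed to 2.23 to 5.41 CPM in withdrawn and 2.37 to 6.67 CPM in DOX libraries, and 4 measured 2-cell-like markers to 46.7 to 265 CPM in withdrawn and 76.5 to 283 CPM in DOX libraries. No marker was at 0 in all libraries, and the part of these cells in any result was not tested.

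The 84 genes took up between 9.42 and 13.6% of all exonic reads. Their share was 11.2, 10.4 and 9.42% in withdrawn early G1 libraries 1, 2 and 3, against 13.6, 10.6 and 9.94% with DOX. In late G1 it was 11.0, 9.77 and 9.46% after withdrawal, against 12.7, 10.7 and 10.3% with DOX, and in G2 11.0, 10.4 and 9.52% after withdrawal, against 12.6, 11.3 and 9.87% with DOX. Withdrawn groups overlapped DOX groups in each phase. Replicate 1 had the highest and replicate 3 the lowest share in 6 of 6 groups, so the share also moved with the replicate number. The group means were 10.3 ± 0.87% and 11.4 ± 1.94% in early G1 for withdrawn and DOX cells, 10.1 ± 0.81% and 11.2 ± 1.28% in late G1, and 10.3 ± 0.75% and 11.2 ± 1.35% in G2 (SD, n = 3 each). In bulk RNA, fewer cells of a type and less RNA per cell cannot be told apart.

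**Figure D1:**
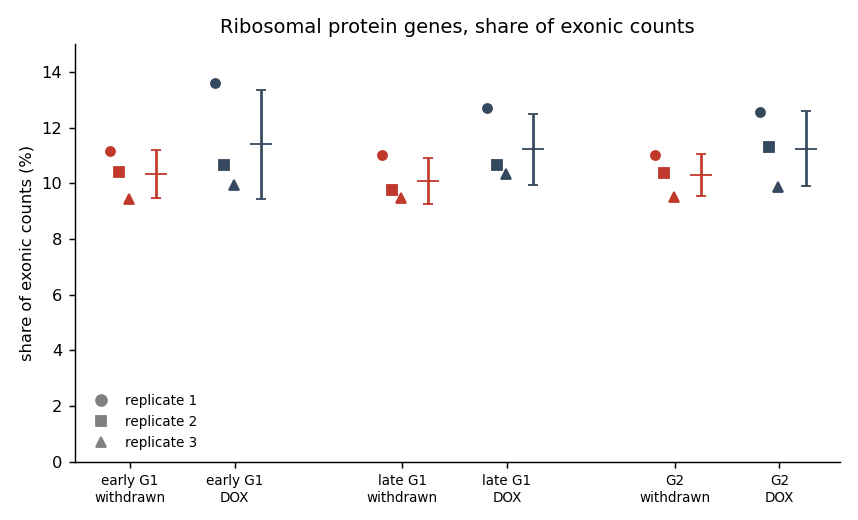
Share of exonic counts (%, vertical axis from 0) that fell on the 84 ribosomal protein genes in each RNA-seq library, withdrawn groups left of their DOX groups. Marker shapes are replicate numbers and bars are mean ± SD (n = 3); replicate 1 stands highest and replicate 3 lowest in all 6 groups, and the 1 share above 13 is DOX early G1 replicate 1 at 13.6%.

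Most of the genes were measured with large counts. Of the 84, 81 had at least 10000 counts over the 18 libraries and 78 averaged over 100 CPM, with the range running up to 4157 CPM for Rplp0. CPM values are not divided by length, so they do not rank the genes by RNA level. Rpl30, Rpl3l and Rpl34 averaged 0.457, 1.25 and 2.67 CPM, and Rps16 averaged 29.6 CPM. No source used here says how reads shared with processed pseudogenes or near-identical copies were counted, so single values of such genes are uncertain. For 80 of 84 genes the highest library was less than 2 times the lowest, with a median ratio of 1.51. Introns added little: 4.2 to 4.78% of the reads of these genes were intronic, against 33.3 to 46.0% over all genes.

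The genes varied together from library to library. Over the 18 libraries, after group means were taken out, the median pairwise correlation of the 81 genes with at least 10000 counts was 0.79, against 0.06 over 5508 genes of that depth. With the means of the replicate numbers removed as well, it was 0.62. These points share libraries, depth and replicate numbers, and the values are descriptions. Of 83 genes, 70 had a correlation above 0.5 with the mean of the other genes, and 9 had a negative one. The 9 were Rps16 (-0.70), Rpl11 (-0.62), Rps26 (-0.55), Rpl28 (-0.54), Rpl10l (-0.51), Rps15 (-0.47), Rps29 (-0.47), Rpl7l1 (-0.45) and Rpl34 (-0.23). Rpl3, the large-subunit protein that reaches the peptidyl transferase centre, stood at 0.02.

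After DOX withdrawal, most fitted changes of the ribosomal protein genes were small. No gene of the 83 that passed the filter on low counts was called in any of the 3 sorted phases (edgeR, adjusted p under 0.05), where 0.163%, 0.461% and 0.972% of the 14092 genes tested were called in early G1, late G1 and G2; Rpl30 did not pass the filter. DESeq2 also called 0 of them in each phase, and its share over all genes by phase is not given here. At an unadjusted p under 0.05, edgeR gave 2 of 83 in each phase, beside 9.63, 13.1 and 14.4% of all genes: Rps2 and Rplp2, both lower, in early G1, Rps16 higher and Rplp2 lower in late G1, and Rps16 higher and Rpl34 lower in G2. Most of the small differences pointed down. The median log2 change of the 83 genes was -0.11, -0.10 and -0.07 in the order early G1, late G1, G2, or a change of -7.5, -6.44 and -4.49%, beside medians of 0.00, 0.00 and -0.01 over all genes tested. The fitted change was below 0 for 73, 67 and 61 of the 83, beside 49.9, 49.9 and 51.7% of all genes. With the counts of the 3 phases summed per replicate, 0 of 84 genes were called (background 0.155% of 14847), the median was -0.07 and 65 of 84 were lower. An average over the phases in the fit of all libraries treats phases of 1 replicate number as separate samples. It called 5 of 83 genes (Rps16 higher, and Rps2, Rpl8 and Rpl14 among the lower ones), beside 16.9% of all genes. With the replicate number as a block it called 29, beside 36.0% of all genes called and 18% called lower; Rps16 and Rpl11 were the higher ones of the 29.

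**Figure D2:**
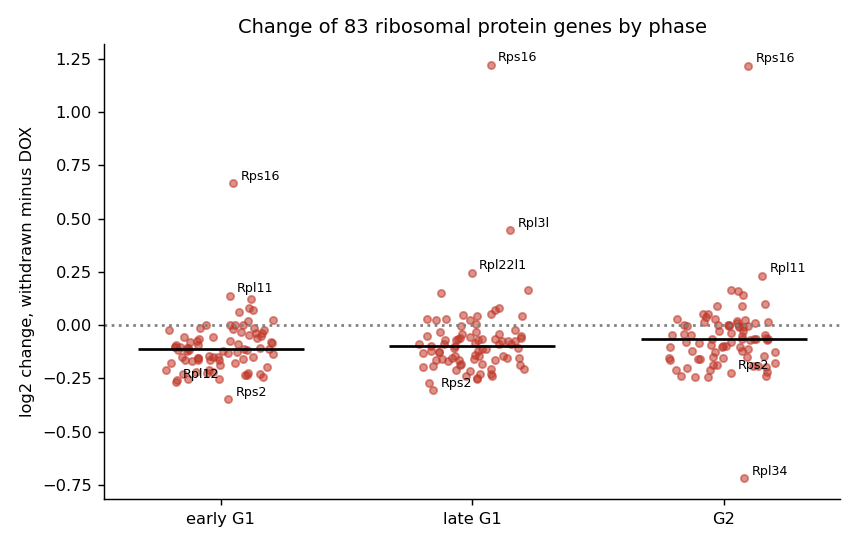
Log2 change (withdrawn minus DOX, vertical axis) of each of the 83 tested ribosomal protein genes in early G1, late G1 and G2, with the median as a black line and no change as a dotted line. Medians lie at -0.11, -0.10 and -0.07; Rps16 stands far above the rest at 0.67, 1.22 and 1.22, Rpl34 lies lowest in G2 at -0.72, and no gene passed the adjusted threshold.

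The downward medians moved toward or past 0 when DOX replicate 1 was left out. Without DOX replicate 1 the median for early G1 was 0.01, that for late G1 -0.03, that for G2 0.02 and that for the summed counts 0.00. Withdrawn replicate 1, also the highest of its group in share of exonic reads, stayed in these fits, so replicate numbers were not balanced. Leaving out withdrawn replicate 3 gave -0.04, -0.08, -0.02 and -0.03. Between withdrawn and DOX libraries of the same replicate number the median differed by -0.26, 0.01 and -0.07 in early G1, by -0.22, 0.03 and -0.10 in late G1 and by -0.13, -0.11 and 0.05 in G2. It was below 0 in 6 of 9 such pairs, and replicate 1 had the lowest value in each phase. Whether the replicate number stands for a culture or a day was not tested.

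**Figure D3:**
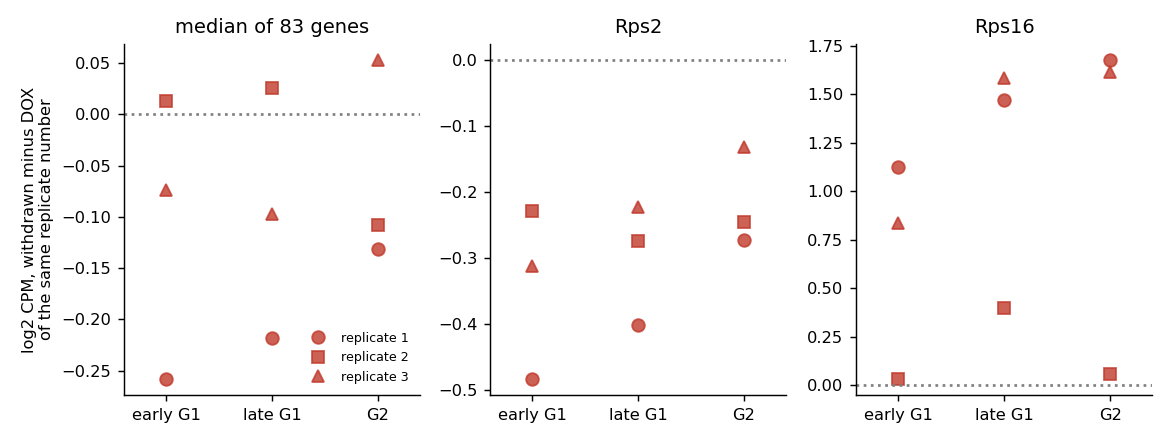
Difference in log2 CPM (withdrawn minus DOX, vertical axis) between libraries of the same replicate number in each phase, for the median of 83 genes, Rps2 and Rps16; shapes are replicate numbers. The median lies below 0 in 6 of 9 pairs, Rps2 in 9 of 9, and Rps16 lies above 0 in 9 of 9, close to 0 in replicate 2 of early G1 and G2.

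Sorted by symbol, the 2 subunits had similar medians. This sorting counts Rps19bp1 with the small subunit and Rpl31-ps12 with the large one. The large-subunit genes had medians of -0.11, -0.10 and -0.07 in early G1, late G1 and G2, with 44, 41 and 35 of 51 lower. The small-subunit genes had medians of -0.12, -0.10 and -0.08, with 29, 26 and 26 of 32 lower. A total of 52 genes had a fitted change below 0 in all 3 phases, and 6 were above 0 in all 3: Rps16, Rpl11, Rps29, Rpl36al, Rpl39l and Rpl7l1. The phases share replicate numbers, so a repeated sign is not independent evidence.

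Among small-subunit genes, Rps2, whose protein lines the mRNA entry channel, was the lowest in early G1 and late G1. It was at 3382, 3387 and 2750 CPM in withdrawn early G1 libraries, against 4727, 3971 and 3416 CPM with DOX. In late G1 it was at 3460, 3309 and 3038 CPM after withdrawal, against 4570, 4004 and 3544 CPM with DOX, and in G2 at 3727, 3397 and 3026 CPM after withdrawal, against 4503, 4027 and 3314 CPM with DOX. The groups did not overlap in early G1 and late G1 and overlapped in G2. The log2 change was -0.35 ± 0.15 (SE) in early G1 and -0.31 in late G1, and it missed the threshold in the fit without pairing. Same-numbered libraries of the same phase deviated together (the 9 withdrawn and DOX pairs correlated at 0.11 to 0.53), so the numbers were taken to pair the samples. Over all 45 same-numbered pairs, on which the block rests, the correlation ran from -0.003 to 0.77. Libraries of different numbers were not compared, so the pairing is an assumption. With the replicate number as a block, Rps2 fell by 0.34 in early G1 (adjusted p = 0.016) and by 0.30 in late G1 (adjusted p = 0.020). In G2 the block gave -0.22 (adjusted p = 0.068). These were 1 of the 83 genes called in early G1 and 1 of 2 in late G1, beside 4.03% and 9.04% of all genes called with the block.

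Rps16, a protein near the decoding site, went the other way. Its CPM was 28.8, 23.0 and 41.4 in withdrawn early G1 libraries, against 13.1, 22.4 and 23.1 with DOX. In late G1 it was 35.8, 29.1 and 73.0 after withdrawal, against 12.9, 22 and 24.3 with DOX, and in G2 36.9, 22 and 69.3 after withdrawal, against 11.5, 21.1 and 22.6 with DOX. Withdrawn replicate 3 was the highest library and DOX replicate 1 the lowest in each phase, and only late G1 showed no overlap. The log2 change was 0.67, 1.22 ± 0.41 (SE) and 1.22, with an adjusted p of 0.19 in late G1 and 0.17 in G2. With the block Rps16 rose by 1.17 in late G1 and by 1.18 in G2 (adjusted p = 0.012 and 0.0098), and it was the 1 gene of the set called in G2 beside 11.2% of all genes. On the summed counts the block called Rps16 alone (1.02, adjusted p = 0.014), beside 11.7% of all genes, with Rps2 at -0.27 (adjusted p = 0.058). DESeq2 on the summed counts called Rps16 as well (1.05, adjusted p = 0.030), beside 3.69% of 14170 genes. Over introns its change was 0.07 (adjusted p = 0.97). Rps16 has 10012 exonic counts over all libraries, far fewer than most genes of the set.

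Of the other small-subunit genes, Rpsa, the protein also known as the laminin receptor, was at 3642, 4283 and 3325 CPM in withdrawn G2 libraries, against 5041, 4534 and 3727 CPM with DOX. The groups overlapped, and the change was -0.24 ± 0.16 (SE; adjusted p = 0.51). Rps6, the substrate of the S6 kinases, changed by -0.11, -0.11 and -0.07 in early G1, late G1 and G2, with adjusted p-values of 0.82 to 0.89. Rps4x, the X-linked form of Rps4, changed by -0.10, -0.07 and -0.12, and Rps15a by -0.16, -0.04 and -0.05, each with overlapping groups. Rps21, a small-subunit protein, was among the 5 lowest in early G1 at -0.25. Rps29, a zinc-binding subunit, changed by 0.07, 0.17 and 0.16, with adjusted p-values of 0.57 to 0.92.

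In the stalk of the large subunit, where translation factors dock, Rplp2 had the clearest separation. It was at 498, 495 and 509 CPM in withdrawn late G1 libraries, against 642, 582 and 589 CPM with DOX. No late G1 library of one group reached the other, and the change was -0.27 ± 0.12 (SE; adjusted p = 0.32). In early G1 the change was -0.25 (adjusted p = 0.51) with overlapping groups, and in G2 -0.07 (adjusted p = 0.85). Its partner Rplp1 changed by -0.14, -0.18 and -0.24 in early G1, late G1 and G2, and Rplp0, which anchors both, by -0.11, -0.11 and -0.04.

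Rpl12, which binds at the base of that stalk, was at 1564, 1398 and 1198 CPM in withdrawn early G1 libraries, against 2146, 1546 and 1310 CPM with DOX. In late G1 it was at 1567, 1380 and 1182 CPM after withdrawal, against 1945, 1549 and 1424 CPM with DOX, and in G2 at 1495, 1395 and 1205 CPM after withdrawal, against 1940, 1604 and 1297 CPM with DOX. The groups overlapped in all 3 phases, although each withdrawn library lay below the DOX library of its number. The log2 change was -0.27, -0.25 and -0.24, and no fit by phase called it. Rpl9 changed by -0.26 in early G1 and Rpl14 by -0.24 in late G1. Rpl14 was at 1395, 1505 and 1416 CPM in withdrawn late G1 libraries, against 1844, 1638 and 1618 CPM with DOX, and these groups did not overlap.

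Rpl3 shows a gene with no visible difference. It was at 2042, 2195 and 2196 CPM in withdrawn early G1 libraries, against 2151, 2176 and 2157 CPM with DOX. In late G1 it was at 2083, 2191 and 2260 CPM after withdrawal, against 2249, 2192 and 2230 CPM with DOX, and in G2 at 2309, 2236 and 2257 CPM after withdrawal, against 2211, 2317 and 2166 CPM with DOX. The groups overlapped in all phases. Rpl11, which with Rpl5 can bind Mdm2 and stabilise p53, was at 671, 553 and 702 CPM in withdrawn G2 libraries, against 447, 624 and 569 CPM with DOX. These overlapped, and its change was 0.14, 0.15 and 0.23 in early G1, late G1 and G2, with adjusted p-values of 0.57 to 0.87. Rpl24 changed by 0.16 in G2. Rpl13a, Rpl27a and Rpl37a, core large-subunit proteins, changed by -0.21 to -0.06 across the phases.

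**Figure D4:**
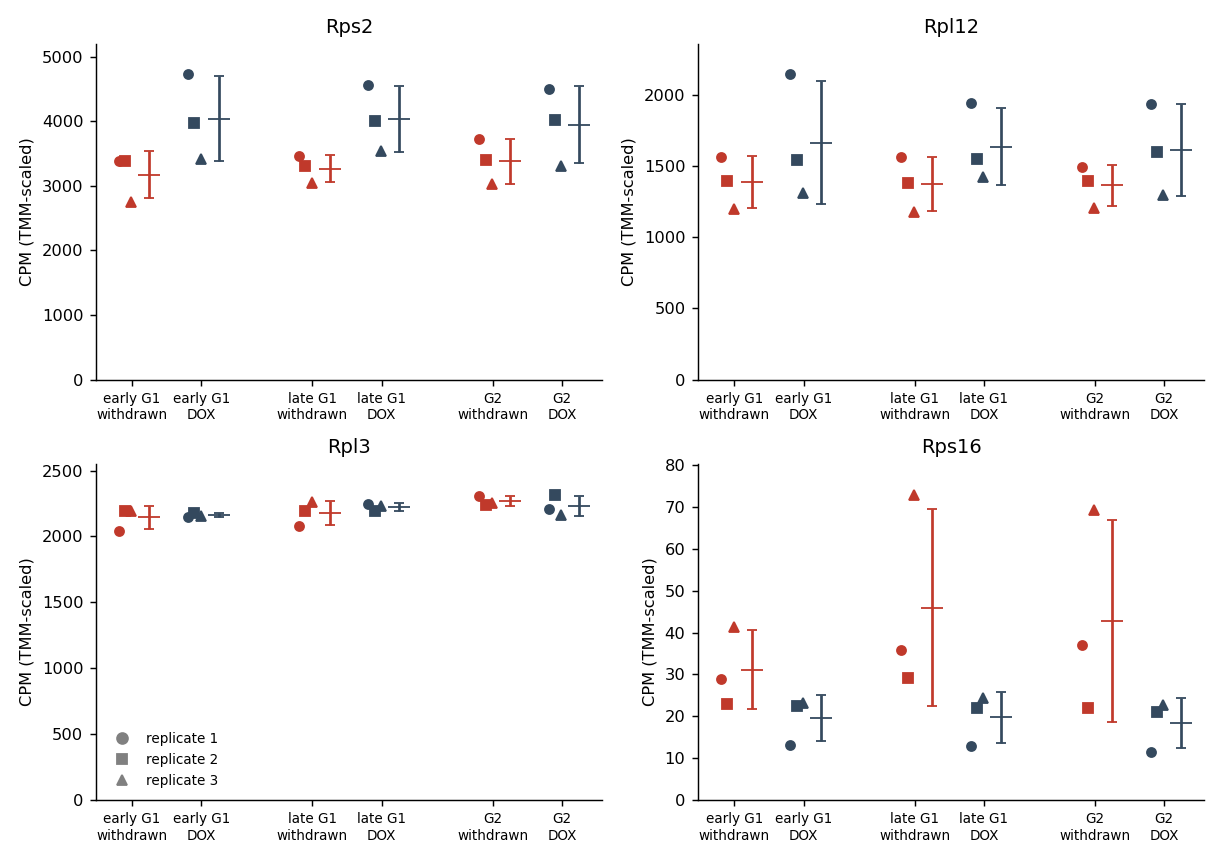
CPM (TMM-scaled, vertical axes from 0) of Rps2, Rpl12, Rpl3 and Rps16 in every RNA-seq library, withdrawn groups left of DOX groups in each phase; shapes are replicate numbers and bars mean ± SD (n = 3). Rps2 is lower after withdrawal with no overlap in early G1 and late G1, Rpl12 overlaps in each phase, Rpl3 is level, and Rps16 is highest in withdrawn replicate 3.

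The paralogs and relatives did not move as a group. Rpl22l1, the paralog of Rpl22, was at 183, 212 and 194 CPM in withdrawn late G1 libraries, against 172, 177 and 147 CPM with DOX. These did not overlap, yet the change was 0.25 ± 0.17 (SE; adjusted p = 0.57), and it was -0.08 in early G1 and in G2. Rps27l, a paralog known as a p53 target, changed by -0.14, 0.05 and -0.24 in early G1, late G1 and G2. Rpl39l and Rpl10l, known for expression in testis, stayed within 0.07 of 0 in each phase, Rpl7l1 within 0.10, and Rpl36al changed by 0.06, 0.03 and 0.14. Rpl3l, the paralog known from striated muscle, was at or under 2.44 CPM in every library and gave -0.23, 0.45 and -0.14. Rpl31-ps12 changed by 0.00, -0.06 and -0.06, and Rps19bp1 by -0.05, -0.09 and 0.09. None of these passed the adjusted threshold in any phase.

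Rpl34 had the lowest change of all 83 genes in G2. It was at 1.02, 2.01 and 2.69 CPM in withdrawn G2 libraries, against 3.33, 2.27 and 3.56 CPM with DOX, or 825 counts over all 18 libraries. The groups overlapped, and the change was -0.72 (adjusted p = 0.26). The low withdrawn value came from replicate 1, the deepest library (31.8 M exonic counts), which also held 59 of the 165 counts of Rpl30. Their low counts limit what these 2 genes can show.

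The start of transcription was read from RefSeq (GRCm38.p6), where 64 of the 84 genes had an entry and 20 had none. A run of C followed by at least 5 further pyrimidines, on the gene's strand between 10 bases before and 30 bases after any start listed for it, was found for 40 of 64 genes (62.5%), against 30.7% of 27025 genes. Both strands from 250 bases before to 30 bases after the start were searched for 4 more motifs. CCGGAAGT, an ETS-type motif, was found for 11 genes (17.2%, against 4.12% of all genes), AAGATGGCG, a YY1-type motif, for 2 (3.13%, against 1.23%), and TATAAA for 7 (10.9%, against 15.1%). TCAAGGTCA, an Esrrb-type motif, was found for 0 of 64, against 0.459% of all genes. A match describes letters in a window and no more. The windows from 20 bases before to 30 after the start are shown for 5 of the genes described above, chosen after their values were seen, 3 with lower and 2 with higher fitted values after withdrawal, on the gene's strand from 5′ to 3′ with the pyrimidine run in capitals: Rps2 (chr17:24720043-24720092, plus strand), Rplp2 (chr7:141447631-141447680, plus), Rpl12 (chr2:32961692-32961741, plus), Rpl11 (chr4:136053364-136053413, minus) and Rps16 (chr7:28350669-28350718, plus).
Rps2: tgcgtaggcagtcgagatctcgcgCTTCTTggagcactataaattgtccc
Rplp2: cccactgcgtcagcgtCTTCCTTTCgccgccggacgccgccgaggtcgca
Rpl12: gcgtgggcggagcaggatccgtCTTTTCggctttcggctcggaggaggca
Rpl11: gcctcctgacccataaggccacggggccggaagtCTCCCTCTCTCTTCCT
Rps16: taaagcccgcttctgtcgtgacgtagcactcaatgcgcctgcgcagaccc
The run has 6 bases in Rps2 and Rpl12, 9 in Rplp2 and at least 16 in Rpl11, where the window ends within it. The window of Rps16 holds none. The Rpl11 window also holds the ETS-type motif, in lower case before the run, and the Rps2 window holds the TATAAA motif after it. Rps2 and Rplp2 on the low side and Rpl11 on the high side thus all hold a run, and no test of motif against response was made.

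Intronic reads, which come mostly from unspliced RNA, were counted for 74 of the genes. With the phases summed, the median change of these 74 was -0.18, with 66 of 74 lower, beside a median of 0.00 over the 14966 genes tested. edgeR called 0 of the 74 and 0 of all genes (background 0%). DESeq2 called 0 of the 74, and its share over all genes is not given here. At an unadjusted p under 0.05 edgeR gave 10 of the 74, all lower, and 1007 of all genes. The median depended on scaling. With library totals in place of TMM it was 0.01 beside an all-gene median of 0.19. A change of scaling shifts all genes by about the same amount, so the gap between the set and all genes cannot test the scaling. Among intronic reads, 6 genes took 15.6 to 28.0% of a library, with Filip1l alone between 0.07 and 6.52%. By phase, an analysis with TMM added after the data were seen, the medians were -0.25, -0.19 and -0.16. In early G1, late G1 and G2, 72, 68 and 61 of 74 were lower, beside 49.1, 50.3 and 48.9% of all genes. The mean share of unscaled intronic reads on these genes was higher after withdrawal in early G1 (0.86%, against 0.77% with DOX). It was lower in late G1 (0.82 against 0.86%) and in G2 (0.87 against 0.93%).

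With the replicate block, 6 of the 74 fell over introns, beside 3.48% of all genes called: Rpl12, Rpl8, Rps2, Rps15, Rps19 and Rpl14. The block was fitted with TMM only, so these calls were not tried with library totals. Intronic Rpl12 was at 35.1, 43.8 and 35.6 CPM in withdrawn sums, against 55.9, 62.7 and 45.6 CPM in DOX sums. Its groups did not overlap, and it fell by 0.52 (adjusted p = 0.0035 with the block; -0.52 ± 0.15 SE and adjusted p = 0.51 without it). Intronic Rps2 was at 123, 157 and 117 CPM in withdrawn sums, against 175, 176 and 156 CPM in DOX sums, with 1 withdrawn sum just above the lowest DOX sum (block -0.36, adjusted p = 0.036). Rpl8, a protein near the peptidyl transferase centre, was at 71.3, 105 and 82.2 CPM in withdrawn sums, against 112, 117 and 104 CPM in DOX sums, and fell by 0.38 (adjusted p = 0.033). Rpl14 was at 79.7, 79.9 and 82.0 CPM in withdrawn sums, against 102, 102 and 96.2 CPM in DOX sums, with no overlap, and fell by 0.31 (adjusted p = 0.035). Rps15, a protein at the decoding site, fell by 0.34 (adjusted p = 0.041), and Rps19, mutated in Diamond-Blackfan anaemia in humans, by 0.33 (adjusted p = 0.033).

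Between sorted phases no difference was called, and a test that called no gene at all cannot show that the genes were level. Across 9 comparisons of phases or of responses between phases, edgeR called 0 of the 83 genes (background 0% of 14092 in each). DESeq2 and the block also called 0 of the 83, and their shares over all genes are not given here. At an unadjusted p under 0.05 edgeR gave 0 of the 83. Median changes lay between 0.00 and 0.07. The median of G2 minus early G1 was 0.07 in withdrawn cells, with 65 of 83 higher, and 0.02 with DOX, with 47 of 83 higher. The share of all genes that were higher is not given here. The difference of the withdrawal response between G2 and early G1 had a median of 0.05 over the genes, and the value farthest from 0 was Rpl34 at -0.84 (95% interval -1.70 to 0.02, adjusted p = 1.00). For Rps2 the same difference was 0.13 (95% interval -0.31 to 0.56), and for Rps16 0.55 (95% interval -0.67 to 1.77). A larger or smaller response in 1 phase was therefore not shown for any gene.

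Genes of the same pathway were set beside them, from lists written with earlier results known. Of ribosomal genes outside the symbol rule, Fau stood at -0.11, -0.19 and -0.06 in early G1, late G1 and G2, and Gnb2l1, which encodes Rack1, at -0.18, -0.17 and -0.15, and neither was called. Of 67 ribosome biogenesis factors, 0 were called in any phase and the medians were 0.14, 0.16 and 0.18, with 7, 11 and 8 of 67 lower. With the block 1, 6 and 11 of the 67 rose and none fell, where 4.03, 9.04 and 11.2% of all genes were called, among them the nuclease Nob1 (0.61, 0.69 and 0.65), and in G2 Tcof1 (0.77), which serves rRNA transcription. None of 13 elongation and related TOP genes, 35 initiation factors or 14 polymerase I genes was called in any phase. With the block, Pabpc1 and Nap1l1 of the 13 rose in late G1 and G2, the initiation factors had 0, 3 and 2 higher and 2, 1 and 1 lower, and of the polymerase I genes Polr1b and Polr1d were called in late G1 and G2, 1 each way.

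Of 17 genes of mTORC1 and TOP control, Rragd, a Rag GTPase of amino acid sensing, rose in G2 (0.49 ± 0.11 SE, adjusted p = 0.046), and 0 were called in early G1 and late G1. With the block Rragd and Deptor, an mTOR inhibitor, rose in all 3 phases, and Rps6kb1 rose and Akt1s1 fell in late G1, while Larp1, which binds TOP mRNAs, rose in G2 (0.61, adjusted p = 0.012). Of 7 factors reported at ribosomal protein promoters, Myc rose in late G1 (1.21 ± 0.26 SE, adjusted p = 0.045) and stood at 1.03 in early G1 (adjusted p = 0.16) and 1.01 in G2 (adjusted p = 0.070). With the block Myc rose in all 3 phases, by 1.02, 1.17 and 1.00 (adjusted p = 0.024, 0.0070 and 0.015), Sp1 in late G1 and G2, and Mycn in G2. Host genes of snoRNAs had no row in the table and were not analysed here.

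Esrrb peaks at the start were found for ribosomal protein genes in a share close to that of all genes. Of the 84 genes, 7 (8.33%) had a peak edge within 1000 bp of the start, against 1602 of 20300 genes (7.89%), and within 5000 bp 21 (25%) did, against 3135 (15.4%). These shares were not tested. Of the 7 peaks (mm9), 6 are described: those at Rpl23a (chr11:77997001-77998200, overlapping the start), Rps24 (chr14:25309351-25309800, 102 bp away), Rpl29 (chr9:106332451-106333350, 582 bp), Rps20 (chr4:3763351-3764100, 604 bp), Rps15 (chr10:79755901-79756500, 726 bp) and Rps10 (chr17:27773101-27774150, 914 bp). The authors' deposited table sorts the Rpl23a peak as Bookmarked, meaning kept in mitosis, and the other 5 of these as Lost. Of 25 peaks within 5000 bp, 4 were Bookmarked and 21 Lost, beside 13.6% Bookmarked among all 14559.

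The heights of these peaks, in log2 units as deposited, fell with the heights of nearly all peaks. At Rpl23a, a protein at the exit of the nascent chain, interphase heights were -2.19 and -0.51 after withdrawal and 1.1, 2.07, 1.72 and 1.18 with DOX. Its mitosis heights with DOX were 0.73, 0.36, -0.17 and 0.54, below every interphase library with DOX. At Rps24 they were -3.58 and -1.19 in withdrawn interphase, and -0.30, 0.50, 0.10 and 0.16 in mitosis with DOX, against 1.43, 2.22, 2.03 and 2.13 in interphase with DOX, with no overlap. All 7 peaks were lower in withdrawn than in DOX interphase (limma, -4.57 to -2.87, adjusted p at most 0.0008), as were 99.6% of all peaks. All 7 were also lower in mitosis than in interphase with DOX (-2.37 to -1.15, adjusted p at most 0.027), as were 91.4% of all peaks, and this held with the replicate block. When each library was centred on its own median, 0 of 7 were called in either comparison. Of all 14559 peaks, 79 were then called higher and 404 lower after withdrawal, and 322 higher and 177 lower in mitosis. With so few peaks called, 0 of 7 does not set these peaks apart.

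**Figure D5:**
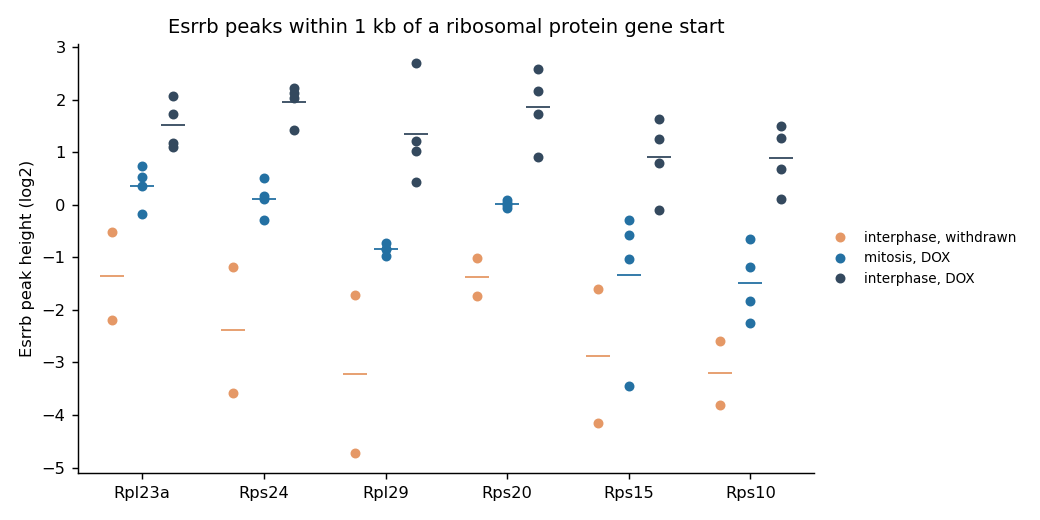
Esrrb peak height (log2, as deposited, vertical axis) in each ChIP-seq library for 6 peaks within 1000 bp of a ribosomal protein gene start, in withdrawn interphase (2 libraries), mitosis with DOX (4) and interphase with DOX (4); bars are means. Withdrawn interphase libraries lie lowest or near lowest at each gene, and the mitosis means lie between, with Rpl23a at 0.37 and Rps10 at -1.48.

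The RNA of these 6 genes with a near peak stayed within the range of the set. Their exonic changes after withdrawal ran from -0.20 for Rps20 to -0.05 for Rps24 in early G1, from -0.24 for Rps10 to -0.03 for Rps24 in late G1, and from -0.18 for Rps10 to 0.00 for Rps24 in G2. None passed the adjusted threshold. Rps24, with the second nearest peak, was at 1715, 1618 and 1531 CPM in withdrawn early G1 libraries, against 1858, 1560 and 1634 CPM with DOX, and the groups overlapped.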

How the data were processed

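RNA-seq was measured in 18 libraries and Esrrb ChIP-seq in 12. The deposited values are raw exonic and intronic counts per gene, per the file headers, and log2 heights of 14559 peaks (mm9) with the authors' classes, both deposited as tables. The submitters' processing notes list Bowtie, CASAVA 1.8, DESeq2 and mm9 without saying what each did. No source used here gives the counting rules or strand setting, and ChIP depth was not used.

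Counts entered 1 edgeR 4.0.16 fit (R 4.3.3) of 6 groups with filterByExpr, TMM and quasi-likelihood tests, with Benjamini-Hochberg adjustment at 0.05 over all genes. Phases were also summed per replicate (4 residual degrees of freedom). Peak heights entered a limma 3.58.1 trend fit. Blank lines (2377, intronic table) were dropped. Alternatives were the replicate block, DESeq2 1.42.0, other filters and scalings, and leaving out each library. The 9 same-phase pairs correlated at 0.11 to 0.53, and all 45 same-numbered pairs at -0.003 to 0.77. Different numbers were not compared, so pairing was assumed, and the block is given where it changes a named call. The fit recovered changes planted in simulated counts. These were larger than those fitted for the ribosomal protein genes and had no replicate effect, so they do not show what the fit would miss here.

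Members and lists were chosen with earlier results of these data known. Named genes were those called, the 5 highest and 5 lowest per comparison, a fixed set of stalk, core and paralog genes, and genes with a peak within 1000 bp. Levels carry mean ± SD (n = 3), and intervals are 95%. A few genes are not reported here.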

Additional observations from a re-analysis of the deposited data

Results flagged for a closer look

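The symbols of Rpl26 and Rps27 match the family but have too few counts to belong to the set, and both had their highest count in the same library. Rpl26 had 12 of its 43 counts in withdrawn G2 replicate 1, against 0 to 7 in each other library. Rps27 had 11 of its 12 counts in that library, against 0 to 1 in each other one. The same library held 59 of the 165 counts of Rpl30. It was also the deepest, at 31.8 M exonic counts against at most 24.3 M in the others, and these are raw counts. Scaled for depth, Rpl30 averaged 0.457 CPM and reached 1.88 CPM in its highest library. The cause of the high counts was not tested. Heights in 14 groups of 4 ChIP-seq libraries were looked at for a library far from the others, and 0 were found.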

How the results depend on the processing

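The replicate block moved the count of ribosomal protein genes called from 0 to 1 in early G1, 2 in late G1, 1 in G2, 1 for the phases summed (Rps16, 1.02, adjusted p = 0.014) and 6 for introns. Calls of Esrrb and of pathway genes that it changed are given in the results; for interphase peaks after withdrawal the block could not be fitted, because withdrawn and DOX libraries are numbered in separate series. DESeq2 called 1 for the summed phases. The average over phases in the fit of all libraries, which treats phases of 1 number as separate samples, called 5 (beside 16.9% of all genes), and with the block, added after seeing the data, 29 (2 higher and 27 lower, beside 36.0% of all genes called and 18% called lower). Other filters and scalings left the counts of exonic and intronic calls at 0. Leaving out 1 library at a time gave 0 to 0 calls in each exonic and intronic comparison. Medians ranged from -0.19 to 0.01 in early G1, -0.13 to -0.03 in late G1, -0.15 to 0.02 in G2, -0.15 to 0.00 for the sums and -0.26 to -0.13 for introns. Library totals without TMM, added after seeing the data, moved the intronic median to 0.012 and turned intronic Rplp2 to 0.023. With 1 library out, Rplp2 in G2 ran from -0.13 to 0.023, above 0 without DOX replicate 1, and intronic Rps16 from -0.077 to 0.22, below 0 without withdrawn replicate 3 or DOX replicate 1 (-0.037). Within 5000 bp, 25 of 25 peaks were lower in both comparisons, beside 99.6% of all peaks after withdrawal and 91.4% in mitosis. With heights centred per library 0 of 7 were called in both. Of all 14559 peaks, that scaling called 79 higher and 404 lower after withdrawal, and 322 higher and 177 lower in mitosis. Leaving out 1 ChIP-seq library gave 7 to 7 peaks after withdrawal, beside 13661 to 14539 of all 14559 peaks lower. In mitosis it gave 6 to 7, beside 11502 to 13518 lower. Beyond the scalings and the samples left out, the cause was not tested. Counts limit Rpl30, Rpl3l and Rpl34.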
